A study of Drosophila melanogaster with 16 samples.

Results

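The genes described are SERCA, RyR, Ca-alpha1D, Itpr and Stim, which encode a calcium pump, 3 calcium channels and a calcium store sensor. They were chosen by FlyBase symbol, and the 5 symbols were matched to 5 of the 15682 gene identifiers in the count table: SERCA (FBgn0263006), RyR (FBgn0011286), Ca-alpha1D (FBgn0001991), Itpr (FBgn0010051) and Stim (FBgn0045073). All 5 passed the filter on low counts. In the dm6 annotation, SERCA and RyR lie on chromosome arm 2R, Ca-alpha1D on 2L, Itpr on 3R and Stim on X. The counts were made on dm3, so positions are not given.

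Muscle contracts when calcium reaches the thin filament and relaxes when it is removed. In body-wall muscle, depolarisation opens L-type calcium channels of the plasma membrane, the ryanodine receptor releases calcium from the sarcoplasmic reticulum, and the SERCA pump returns it there. The inositol trisphosphate receptor is a separate release channel of the endoplasmic reticulum, gated by a product of phospholipase C. Stim senses a fall in stored calcium and opens the plasma membrane channel Orai, through which the store is refilled.

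RNA was sequenced from pooled dissected body-wall muscle of larvae bearing ras1 G12V;csk-/- (Ras/Src) tumours, in 16 libraries from 4 groups of 4. CD muscle came from animals at day 8 on a control diet with 0.15 M sucrose. Early, Mid and Late muscle came from animals at day 12, day 14 and day 16 on food with 1.0 M sucrose, the high-sugar diet (HSD). These days are those of the labels, and the study's methods place the Early stage of stained muscle on an earlier day. Animals of all 4 groups carried the tumour, made by eyeless-driven FLP recombination in eye tissue, where clones lost csk, a negative regulator of Src, and expressed the oncogenic ras1 G12V transgene. The muscle itself was not the tissue in which the clones were made. No muscle without a tumour was compared here. CD was sampled at day 8 only, and HSD delays development, so diet, age and developmental delay cannot be told apart in comparisons with CD. The labels do not say whether the 4 libraries of a group came from separate cultures, so p-values measure the spread between these libraries. Levels are given in CPM, the count of a gene divided by the TMM-scaled library size, and tests are edgeR's quasi-likelihood test over 11607 genes with Benjamini-Hochberg adjustment, with a gene called at an adjusted p under 0.05.

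Reads counted on genes ranged from 9666672 to 19553907 per CD library and from 18641338 to 28698585 per HSD library. The lowest count of each of the 5 genes was in CD 3, the shallowest library, and ranged from 177 for Ca-alpha1D to 6828 for SERCA, so counting error was small beside the spread between libraries. Contractile muscle genes were abundant in every library. The sum of 13 of them (Mhc, Mlc1, Mlc2, Act57B, Act87E, Tm1, Tm2, up, bt, sls, Prm, Msp300 and Actn) ranged from 21771 to 55448 CPM in CD, from 65121 to 174672 at Early, from 16598 to 44200 at Mid and from 8570 to 20349 at Late. Markers of other tissues were present too. The summed level of 7 nervous system genes was 136 to 160 CPM in CD, 120 to 148 at Early, 156 to 195 at Mid and 147 to 276 at Late, and among them VGlut was at 0 in at least 1 library of CD, Early and Late. Beside this, 7 epidermis and cuticle genes summed to between 4713 and 163454 CPM and 4 tracheal genes to between 1138 and 6182 CPM, and both sums were highest at Early. The sum of 7 fat body genes was 12899 to 23356 CPM in CD and 5399 to 35399 at Late, where its mean of 18135 exceeded the 14733 of the contractile genes. The sum of 6 haemocyte genes was between 1005 and 1970 CPM in all libraries, and 2 of the 6 were called higher at Late than at Early. Summed salivary gland genes ranged from 4.57 to 1135 CPM, with 5 of 6 called lower at Late than at Early, gut genes from 2.25 to 777 and testis genes from 0.24 to 423 CPM. In pooled tissue, fewer muscle cells and less RNA per muscle cell cannot be told apart.

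Per kilobase of exon in dm6, SERCA was the most abundant of the 5 in CD muscle, at 129 ± 54.3 CPM per kb (SD, n = 4). Stim followed at 43.0 ± 2.75 and Itpr at 5.33 ± 1.95 CPM per kb. RyR, at 2.26 ± 1.12, and Ca-alpha1D, at 2.07 ± 0.47 CPM per kb, did not differ beyond their spread. At Early the order of levels per kb changed at the lower end, with RyR at 10.7 ± 7.33, Itpr at 6.49 ± 2.27 and Ca-alpha1D at 3.04 ± 0.92 CPM per kb, and RyR and Itpr overlapped in their spread. At Late, Itpr stood at 11.01 ± 2.45 CPM per kb, above Ca-alpha1D at 2.63 ± 0.66 and RyR at 2.05 ± 0.63, and the last pair again lay within their spread.

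SERCA and RyR rose at Early and fell again by Late. SERCA, the pump that loads the sarcoplasmic reticulum, was 3.59-fold higher at Early than in CD, and RyR, the release channel of the same store, 4.71-fold higher. Both were called, whereas 6.44% of all genes tested were called higher and 2.7% lower in that comparison. By Late both were lower than at Early, by 5.07-fold and 5.20-fold, and neither was called against CD.

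SERCA was present at 1267, 731, 658 and 1599.9 CPM in CD 1 to 4. At Early it was at 6269.9, 2296, 3399 and 3306 CPM, at Mid at 1558, 635, 1473 and 1098 CPM, and at Late at 905, 620.5, 771 and 712 CPM. Every Early library lay above every CD, Mid and Late library, and the other groups overlapped with CD. Between Early and CD the log2 fold change was 1.84 (SE 0.37, adjusted p = 0.00967). SERCA fell by 2.34 on the log2 scale between Early and Late (SE 0.37, adjusted p = 9.36e-04), and 10.1% of all genes were called lower there. The fall was already present at Mid, with a log2 fold change of -1.68 against Early (SE 0.36, adjusted p = 0.0370), in a comparison where 1.82% of all genes were called lower. That call was lost with 10 of the 16 libraries left out in turn, where the log2 fold change ranged from -1.84 to -1.31 over all 16, and was kept only without a CD library, Early 2 or Early 3. Against CD, SERCA was not called at Mid (log2 fold change 0.16, adjusted p = 0.771) or at Late (-0.50, adjusted p = 0.360).

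RyR was at 52.9, 21.6, 20.8 and 53.1 CPM in CD 1 to 4. At Early it was at 343, 82.5, 179 and 94.5 CPM, at Mid at 72.1, 42.3, 70.0 and 69.1 CPM, and at Late at 47.1, 23.0, 29.1 and 35.2 CPM. The Early libraries again lay above all others, and Early 1 was highest for RyR as for SERCA. The log2 fold change between Early and CD was 2.24 (SE 0.46, adjusted p = 0.0107), and between Late and Early -2.38 (SE 0.46, adjusted p = 0.00252). Mid libraries lay below Early libraries, with a log2 fold change of -1.46 that was not called (adjusted p = 0.102). RyR was not called against CD at Mid (log2 fold change 0.77, adjusted p = 0.292) or at Late (-0.14, adjusted p = 0.825), and the sign at Late turned without CD 1 (0.078) or CD 4 (0.061). The SERCA and RyR calls at Early against CD and at Late against Early were kept with each of the 16 libraries left out in turn. Fitted on the 8 Early and CD libraries alone, RyR was at the edge of the threshold (log2 fold change 2.20, adjusted p = 0.0549).

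**Figure D1:**
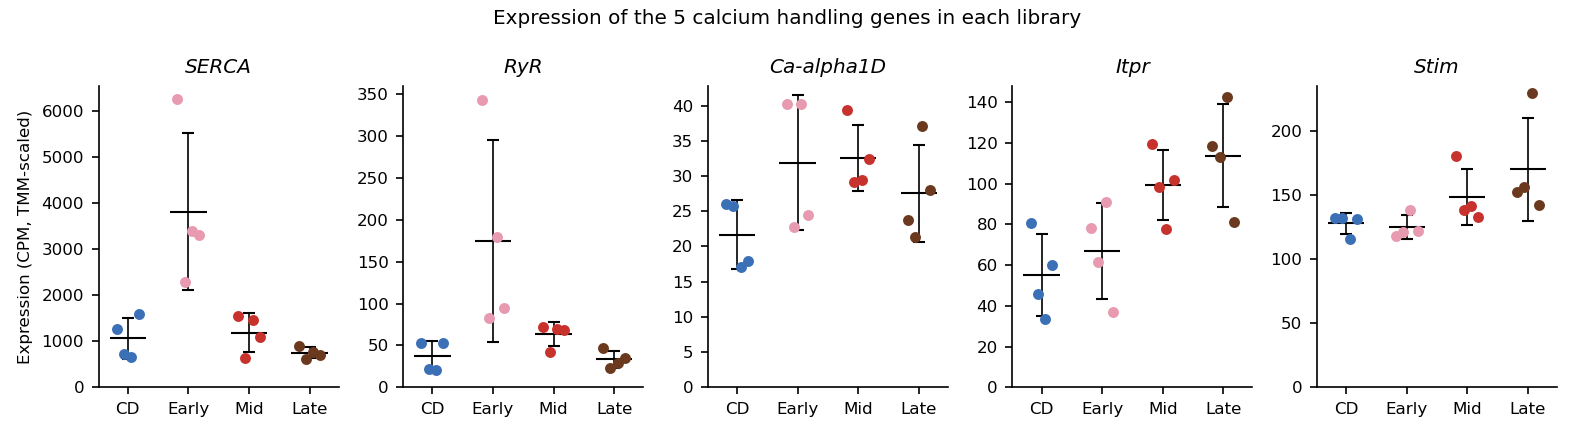
Expression of the 5 genes in each library (CPM, linear axis from 0), with 1 point per library, the mean as a long bar and the SD of 4 libraries as an error bar, and groups along the horizontal axis. The 4 Early libraries of SERCA (2296 to 6269.9 CPM) and of RyR (82.5 to 343 CPM) lie above all other libraries, while Itpr is highest at Late (81.0 to 143 CPM) and Ca-alpha1D and Stim move less.

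Ca-alpha1D, the pore subunit of the L-type channel that triggers contraction in larval muscle, was not called in any of the 6 comparisons. It was at 26.1, 25.7, 17.0 and 17.9 CPM in CD, at 40.2, 22.8, 40.3 and 24.4 CPM at Early, at 39.3, 29.2, 29.5 and 32.4 CPM at Mid, and at 23.8, 21.4, 37.0 and 28.0 CPM at Late. The Mid libraries lay above all CD libraries, but Early and Late overlapped with CD. Fold changes against CD were 0.55 on the log2 scale at Early (SE 0.23, adjusted p = 0.156), 0.59 at Mid (SE 0.23, adjusted p = 0.135) and 0.34 at Late (SE 0.23, adjusted p = 0.333). The ratio of RyR to Ca-alpha1D in CPM was 1.76 ± 0.94 in CD, 5.12 ± 2.31 at Early, 1.95 ± 0.40 at Mid, with 1.28 ± 0.51 at Late (SD, n = 4), and the Early libraries lay above all CD and all Late libraries (p = 0.0286 in both by a two-sided exact permutation test, or 0.0762 after adjustment over 16 tests of ratios).

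Itpr, the inositol trisphosphate receptor, was higher at Late. It was at 80.5, 45.7, 33.8 and 60.3 CPM in CD and at 78.3, 61.4, 91.3 and 37.0 CPM at Early, and these groups overlapped. At Mid it was at 119, 98.3, 77.9 and 102 CPM, and at Late at 118, 113, 143 and 81.0 CPM. The Late libraries were all above the highest CD library, by a narrow margin, since Late 4 was at 81.0 and CD 1 at 80.5 CPM. The fold change between Late and CD was 2.06 (log2 fold change 1.04, SE 0.29, adjusted p = 0.0180), and 14% of all genes were called higher and 7.7% lower there. These shares are 1627 and 894 genes, and upper-quartile scaling in place of TMM gave 1280 higher and 1424 lower. Without CD 2, CD 3 or Late 3 it was no longer called (log2 fold change 0.96, 0.87 and 0.97, adjusted p = 0.0564, 0.0518 and 0.0562), and over all 16 libraries left out in turn it ranged from 0.87 to 1.29. At Mid the log2 fold change against CD was 0.85 (SE 0.29) without a call (adjusted p = 0.0849), in a comparison where 4.37% of all genes were called higher and 1.95% lower (507 and 226 genes, or 440 and 360 with upper-quartile scaling). It was called there without CD 1 (1.09, adjusted p = 0.0373). From Early to Late it was 0.76 (SE 0.29, adjusted p = 0.0760), and it was called without CD 3 (0.80, adjusted p = 0.0397), Early 3 (1.01, adjusted p = 0.0255) or Late 4 (0.92, adjusted p = 0.0428). Of 7 nervous system markers 1 was called higher at Late against CD, with a median change of -0.11 on the log2 scale. The higher sum at Late was carried mainly by Syt1 (56.5 ± 17.0 CPM in CD and 97.7 ± 54.2 at Late) and Syx1A (58.2 ± 19.3 and 92.0 ± 11.5 CPM). The Syx1A libraries of Late lay above those of CD (lowest 82.8 against highest 72.5 CPM). Those of Syt1 overlapped, at 34.4 to 159 CPM at Late and 41.3 to 79.3 in CD. The mean of elav was 16.9 CPM in CD and 21.6 at Late. The other markers had lower means at Late, with nSyb at 5.06 and 4.60, brp at 2.89 and 2.04, Rim at 1.97 and 1.82 and VGlut at 1.66 and 0.18 CPM. Of 6 haemocyte markers 2 were called higher at Late against CD, with a median of 0.052. The part of these cells in the Itpr result was not tested.

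Stim, the calcium sensor of the store, was the least variable of the 5 in CD. It was at 132, 132, 116 and 132 CPM in CD, at 118, 121, 138 and 122 CPM at Early, at 181, 139, 142 and 133 CPM at Mid, and at 153, 156, 229 and 142 CPM at Late. The Mid and the Late libraries all exceeded the highest CD library, and Late exceeded Early in the same way, with Late 3 well above the others. The margin was narrow at Mid, where Mid 4 was at 133.3 and CD 2 at 132.5 CPM. It was also small between Late 4, at 141.9, and Early 3, at 138.5 CPM. The log2 fold change between Late and Early was 0.44 (SE 0.15, adjusted p = 0.0455), and 10.1% of all genes were called higher there. This call was lost with any 1 library left out except Mid 1 or Late 4, with a range of 0.32 to 0.55, and the lowest value was without Late 3 (adjusted p = 0.169). Against CD, Stim was not called at Early (log2 fold change -0.03, adjusted p = 0.957), at Mid (0.22, adjusted p = 0.381) or at Late (0.41, SE 0.15, adjusted p = 0.0597). It was called at Late without Mid 1 (0.41, adjusted p = 0.0470) or Late 4 (0.50, adjusted p = 0.0322).

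Of the 5 genes, 2 were thus called higher at Early against CD, while 0 were at Mid and 1, Itpr, at Late. Between Late and Early 2 were called lower and 1 higher, beside 10.1% of all genes in each direction. Between Mid and Early 1 was called lower, where 1.82% of all genes were called lower and 0.276% higher. Between Late and Mid none was called, in a comparison where 0.19% of all genes were called in either direction. The smallest unadjusted p among the 5 genes there was 0.0550, for RyR, with a log2 fold change of -0.91, and DESeq2's Wald test called none of the 5 either. At Mid against CD the smallest unadjusted edgeR p among the 5 were 0.0102 for Itpr and 0.0242 for Ca-alpha1D. How many of all genes had an unadjusted p as small was not counted. Of the 5, DESeq2's Wald test called Itpr there, in a test that called 1777 of 11066 genes. The comparisons with CD share the CD libraries, and those with Early share the Early libraries.

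**Figure D2:**
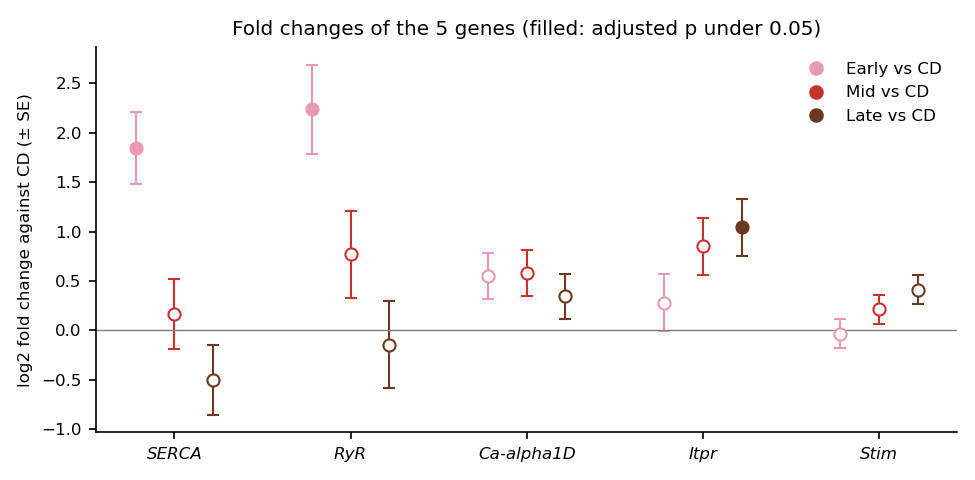
Log2 fold change of each gene at Early, Mid and Late against CD (vertical axis), with error bars of 1 SE from the edgeR fit. Filled points passed an adjusted p of 0.05: SERCA (1.84) and RyR (2.24) at Early and Itpr (1.04) at Late.

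The contractile genes moved in the same comparisons. Of the 13, 7 were called higher at Early against CD and none lower, with a median log2 fold change of 1.51 against -0.01 over all genes tested. At Mid 1 was called higher, with a median of -0.10 against -0.06. At Late 6 were called lower, with a median of -1.21 against -0.08, and between Late and Early 12 were called lower, with a median of -2.62 against -0.05. SERCA and RyR, at -2.34 and -2.38 between Late and Early, were near the contractile median there, whereas at Late against CD they stood at -0.50 and -0.14 beside a contractile median of -1.21. Of the nervous system list none was called at Early, of 7 epidermis and cuticle genes 1 was called higher and of 4 tracheal genes 3, and the part of these tissues in the SERCA and RyR results was not tested.

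Each gene was therefore also expressed relative to the contractile genes of its own library, as the log2 level (CPM plus 0.5) minus the mean log2 level of the 13. With 4 libraries against 4 the smallest p an exact permutation test can give is 0.0286, and over the 20 tests the smallest adjusted p was 0.0635, so none passed. On this scale SERCA was at -0.93 ± 0.23 in CD, -0.58 ± 0.09 at Early, -0.78 ± 0.08 at Mid, followed by -0.24 ± 0.56 at Late (SD, n = 4). Its log2 difference from CD was 0.35 at Early (exact p = 0.0857, adjusted p = 0.122) and 0.68 at Late (exact p = 0.0571, adjusted p = 0.104), and the libraries overlapped in both. SERCA thus kept close to the contractile genes through Early and Mid, and Late 3, at 0.54, was the only library in which it exceeded their mean.

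RyR relative to the contractile genes was at -5.79 ± 0.41 in CD, -5.16 ± 0.52 at Early, -4.95 ± 0.26 at Mid, with -4.74 ± 0.41 at Late. Late did not overlap with CD and was higher by a log2 difference of 1.05 (exact p = 0.0286, adjusted p = 0.0635). Ca-alpha1D lay 1.43 higher at Late than in CD and 2.40 higher at Late than at Early, with no overlap between the libraries in either (exact p = 0.0286 for each, adjusted p = 0.0635). In CPM neither gene was called at Late against CD, while 6 of the 13 contractile genes were lower.

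Itpr and Stim were below CD at Early and above it at Late relative to the contractile genes. The contractile genes themselves moved, by a median of 1.51 at Early and -1.21 at Late on the log2 scale. A gene of unchanged CPM would therefore also lie below CD at Early and above it at Late. In CPM the log2 fold changes at Early and Late were 0.28 and 1.04 for Itpr and -0.03 and 0.41 for Stim. Of these only Itpr at Late was called. On this scale Itpr was at -5.16 ± 0.50 in CD, -6.38 ± 0.65 at Early, -4.29 ± 0.65 at Mid, then -2.98 ± 0.86 at Late. All its Early libraries lay below and all its Late libraries above the CD libraries, with log2 differences of -1.22 and 2.18. Stim was at -3.88 ± 0.51 in CD, -5.41 ± 0.54 at Early, -3.71 ± 0.54 at Mid, followed by -2.40 ± 0.88 at Late, with the same order of libraries and log2 differences of -1.53 and 1.48. From Early to Late the differences were 3.40 for Itpr and 3.01 for Stim. Each of these 6 differences had an exact p of 0.0286 and an adjusted p of 0.0635.

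**Figure D3:**
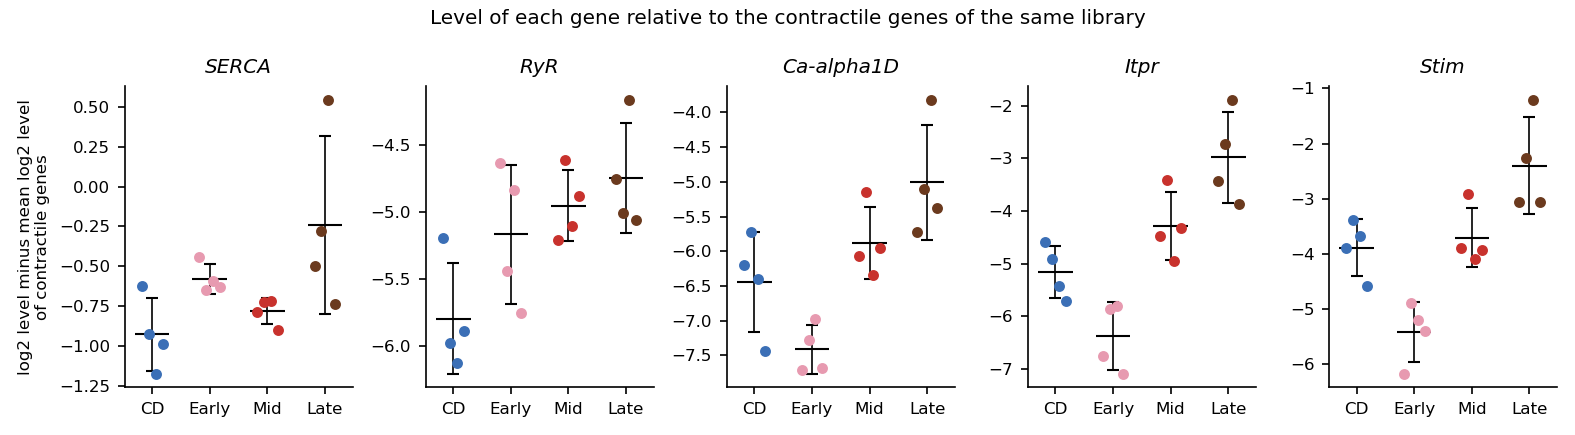
Log2 level of each gene minus the mean log2 level of 13 contractile genes in the same library (vertical axis, a separate range for each gene), with 1 point per library, the mean and the SD of 4 libraries. Itpr and Stim lie below CD at Early and above it at Late without overlap, while SERCA stays between -1.17 and 0.54 in all libraries.

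The release channels Itpr and RyR were compared within libraries, and no test of their ratio passed after adjustment. The ratio of Itpr to RyR in CPM was 1.52, 2.12, 1.62 and 1.14 in CD 1 to 4, and 0.23, 0.74, 0.51 and 0.39 at Early. At Mid it was 1.66, 2.32, 1.11 and 1.47, and at Late 2.51, 4.92, 4.90 and 2.30. The ratio was thus lowest in the Early libraries, and every library of the other groups lay above them. It is not corrected for gene length and serves to compare libraries. Group means were 1.60 ± 0.40 in CD, 0.47 ± 0.22 at Early, 1.64 ± 0.51 at Mid, with 3.66 ± 1.45 at Late (SD, n = 4). Early libraries lay below and Late libraries above all CD libraries (p = 0.0286 in both by the exact permutation test of the log2 ratio, adjusted p = 0.0762), and Mid overlapped with CD (exact p = 0.886). Since the ratio is formed within a library, it does not depend on the scaling between libraries.

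The other ratios did not pass after adjustment either. With 4 libraries against 4 the smallest exact p is 0.0286, so over 16 tests no ratio could pass on its own, however far apart its libraries lay. That of SERCA to RyR in CPM was 29.9 ± 4.23 in CD, 25.0 ± 7.94 at Early, 18.4 ± 3.42 at Mid, then 23.2 ± 4.08 at Late. The highest Mid library, at 21.6, was below the lowest CD library, with an exact p of 0.0286 (adjusted p = 0.0762), while Early (exact p = 0.286) and Late (exact p = 0.0857) overlapped with CD. The ratio of Stim to Itpr was 2.53 ± 0.78 in CD, 2.07 ± 0.84 at Early, 1.51 ± 0.22 at Mid, followed by 1.51 ± 0.21 at Late, and every group overlapped with CD (smallest exact p = 0.0571, adjusted p = 0.114).

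**Figure D4:**
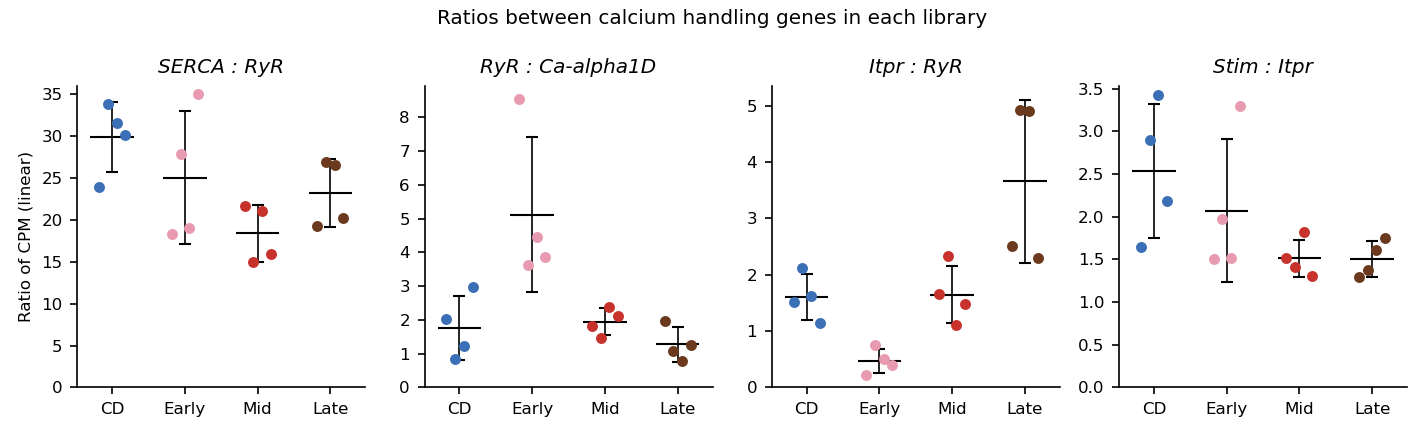
Ratios between the 5 genes in each library (linear ratio of CPM, axis from 0), with 1 point per library, the mean and the SD of 4 libraries. Itpr to RyR is at most 0.74 in the Early libraries and at least 2.30 in the Late libraries, while SERCA to RyR is lowest at Mid (18.4 ± 3.42).

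The annotation places other genes on the same exons. In dm6, CG2812 overlaps SERCA on the opposite strand over 1325 exonic bases, and the antisense gene asRNA:CR43806 overlaps Ca-alpha1D over 248. The libraries were made with a stranded kit, but the strand setting of the counting is not stated. The level of CG2812 was 10.2 to 17.4 CPM in all libraries, with a log2 fold change of 0.32 between Early and CD (adjusted p = 0.274), and asRNA:CR43806 had 0 counts in every library.

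Over the 16 libraries the profile of SERCA was most like that of Idh3a, a subunit of mitochondrial isocitrate dehydrogenase (Pearson r = 0.982 on log2 CPM), and of blw, the alpha subunit of ATP synthase (0.980). Among genes with a symbol, that of RyR was most like SdhA, a subunit of succinate dehydrogenase (0.976), and Mitofilin, a protein of the mitochondrial inner membrane (0.964). The nearest named genes to Itpr were nonC (0.985), a kinase of nonsense-mediated decay, and Usp32 (0.977). For Stim they were Tmem63 (0.946) and gzl (0.946). For Ca-alpha1D they were Hnf4 (0.863), a nuclear receptor, and CG4752 (0.862). These are descriptions over 16 libraries and 6857 genes searched, and the points share their groups, their depth and their tissue mix.

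A wider list of calcium genes was then examined. Of 44 genes listed, 38 were in the count table and 37 were tested, the exception being TpnC4, with at most 14 counts in any library. At Early 5 of the 37 were called higher and none lower than in CD, at Mid 1 was called higher, and at Late 5 were called higher and 10 lower. The shares called higher, 13.5%, 2.70% and 13.5% of the list, stand beside 6.44%, 4.37% and 14% of all genes, and the share called lower at Late, 27.0%, beside 7.7%. The last share of all genes depends on the setting. At Late, 1274 of 6876 genes averaging at least 10 CPM were called lower, as were 1424 of 11607 genes with upper-quartile scaling. Between Late and Early 4 (10.8%) were called higher and 10 (27.0%) lower, beside 10.1% of all genes in each direction. Between Mid and Early 4 (10.8%) were called lower, beside 1.82% of all genes. Between Late and Mid none was called, beside 0.19% of all genes in either direction. On the log2 scale the list's median change was 0.20 at Early, 0.13 at Mid, -0.17 at Late and -0.34 between Late and Early. The number called at Early fell to 0 without CD 3 and without Early 3, and the number called between Mid and Early fell to 0 without Early 1, Early 4 or any Mid or Late library. At Mid the number ranged from 1 to 6 with 1 library left out. At Late it stayed between 12 and 20, and between Late and Early between 12 and 16.

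Troponin C senses calcium on the thin filament, and 3 of its genes were lower at Late. The troponin C gene TpnC47D rose at Early, from 357 ± 179 to 1298 ± 902 CPM (log2 fold change 1.86, SE 0.54, adjusted p = 0.0441), and was at 66.6 ± 37.0 CPM at Late (-2.42 against CD, SE 0.55, adjusted p = 0.00633). The Early call was lost with 13 of the 16 libraries left out in turn. TpnC73F was at 1341 ± 446 CPM in CD and 378 ± 133 at Late (log2 fold change -1.83, adjusted p = 0.00108), and TpnC25D at 21.7 ± 14.6 and 2.03 ± 0.82 CPM (-3.41, adjusted p = 0.00417). The log2 fold changes from Early to Late were -4.28 for TpnC47D, -4.24 for TpnC25D and -2.46 for TpnC73F. Those of TpnC47D and TpnC25D are larger than the -2.34 of SERCA and -2.38 of RyR in the same comparison. That of TpnC73F (SE 0.31) is near them. The difference between genes was not tested.

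Around the store, the genes did not move as a block. CG9297, a relative of the vertebrate reticulum protein sarcalumenin, was at 435 ± 245 CPM in CD and 124 ± 43.8 at Late (log2 fold change -1.81, adjusted p = 0.0153). Its level at Early was 1265 ± 727 CPM, and it fell by 3.35 on the log2 scale between Early and Late. The junctophilin gene jp, which holds reticulum and plasma membrane together, rose by 0.79 at Early (adjusted p = 0.0233, lost with 6 of 16 libraries left out in turn) and was lower at Late than at Early (-0.96, adjusted p = 0.00364). Chaperones of the reticulum that bind calcium went the other way at Late. Calr (calreticulin) rose by 0.96 against CD (adjusted p = 0.00597), Cnx99A (calnexin) by 1.13 (adjusted p = 0.00108) and Gp93 by 1.56 (adjusted p = 7.03e-04), the last from 379 ± 68.8 to 1115 ± 359 CPM. SPoCk, a pump of the secretory pathway, rose by 0.74 at Late (adjusted p = 0.00278).

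At the plasma membrane the calls were few. Orai, the channel that Stim opens, was at 43.0 ± 10.0 CPM in CD and 45.6 ± 1.07 at Late (log2 fold change 0.08, SE 0.16, adjusted p = 0.725). None of the 5 voltage-gated subunits tested besides Ca-alpha1D was called in any comparison, nor was the calcium pump PMCA (0.02 at Late, SE 0.17, adjusted p = 0.939). Calx, the sodium-calcium exchanger, rose by 1.02 at Early (adjusted p = 0.0308, lost with 5 libraries left out in turn), with the libraries overlapping. The calcium-gated potassium channel slo was lower at Late than in CD (-1.24, adjusted p = 0.0127).

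Among mitochondrial uptake genes, the channel MCU rose by 0.70 at Early (adjusted p = 0.0266, lost with 9 libraries left out in turn) and was lower at Late than at Early (-1.08, adjusted p = 0.00113), as was its partner EMRE (-0.87, adjusted p = 0.00536). Of the cytosolic effectors, CaMKII (-0.76) and CanA1 (-1.16), a calcineurin catalytic subunit, fell at Late against CD (adjusted p = 0.00219 and 0.00307). The CanA1 libraries overlapped, with the highest of Late at 24.5 and the lowest of CD at 23.5 CPM. Another calcineurin catalytic gene, Pp2B-14D, was not called at Late (0.32, adjusted p = 0.101), but its Late libraries lay above those of CD. Cbp53E, a calcium-binding buffer protein, was called higher at every HSD stage, by 1.32 at Early, then 1.70 at Mid, then 1.93 at Late (adjusted p = 0.0156, 0.00875 and 7.81e-04). It went from a low level of 5.94 ± 1.43 CPM in CD to 22.7 ± 5.09 at Late, with the Early libraries overlapping those of CD. Its Early call was lost with 2 of 16 libraries left out in turn and under 1 of 8 other settings. Upstream of Itpr, the phospholipase C gene sl was higher at Late than at Early (0.56, adjusted p = 0.0104), while norpA and Plc21C were not called.

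**Figure D5:**
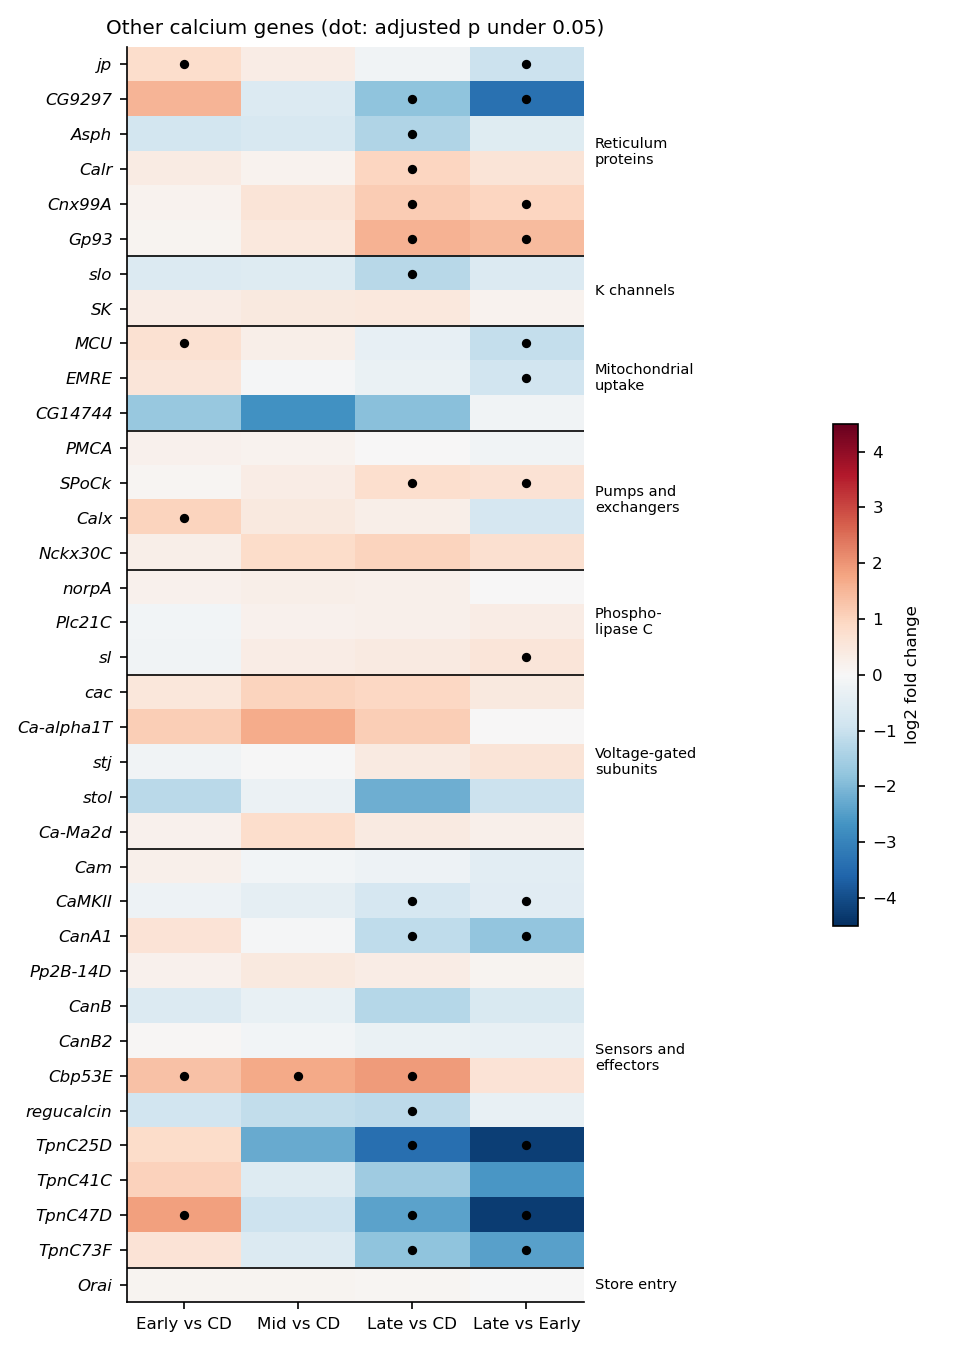
Log2 fold change (colour) of 36 of the 37 other calcium genes tested in 4 comparisons, grouped by role, with a dot where the adjusted p was under 0.05. The troponin C genes and CG9297 are the deepest blue between Late and Early (-4.28 for TpnC47D), and Calr, Cnx99A and Gp93 are red at Late against CD.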

How the data were processed

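Raw counts of reads per gene, deposited by the authors, were used as they stand. Per the labels and the study's methods, the authors made stranded mRNA libraries, demultiplexed with CASAVA 1.8.4, aligned the reads to dm3 with TopHat2 2.0.11 and counted them with featureCounts, whose strand setting is not given in the sources used here. The table held 15682 genes in 16 libraries, of which 1586 had no count. Groups and replicate numbers came from the labels, which give no batch or date.

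Counts were fitted with edgeR 4.0.16 in R 4.3.3, using filterByExpr (minimum count 10, minimum total 15), TMM scaling and 1 quasi-likelihood model with the 4 groups. P-values were adjusted over all 11607 genes tested, at 0.05. The standard error is the absolute log2 fold change divided by the square root of the F statistic. Total counts per library were 9666672 to 28698585, and CPM uses these totals multiplied by the TMM factors. Ratios were taken as log2(CPM + 0.5) within a library and compared by two-sided exact permutation tests in Python 3.11.15, adjusted over 20 tests against the contractile genes and 16 between members. Of 15 contractile genes listed, 13 matched the table. Exonic lengths, chromosome arms and symbols came from the dm6 annotation. Likeness was Pearson r of log2(CPM + 0.5) over genes with a mean of at least 10 CPM. The steps were tested on simulated data.

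The members and lists were chosen with earlier results of these data known. Named genes were the 5 members, the genes of the wider calcium list called in any comparison, and the nearest genes in profile. Those of the list named without a call (Orai, PMCA, norpA, Plc21C, Pp2B-14D and TpnC4) were named for their role or for not being tested. Alternatives were DESeq2 1.42.0 (Wald test, and size factors in edgeR), upper-quartile scaling, testing unfiltered genes or those averaging at least 10 CPM, dropping the 20 most counted genes, fitting the 8 libraries compared, blocking on the replicate number, a pseudocount of 5 CPM or the median contractile level for ratios, and each library left out. Of the wider list, 1 gene is counted but not reported here. Sequences were not used here.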

Additional observations from a re-analysis of the deposited data

Results flagged for a closer look

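In 3 of 56 groups of 4 libraries examined, 1 library lay far from the others, and chance gives about 1 in 20 groups. RyR in Mid 2 was at 42.3 CPM, against 69.1, 70.0 and 72.1 CPM in the other Mid libraries. Stim in CD 3, the shallowest library, was at 115.7 CPM, against 131.6 to 132.5 CPM in the other CD libraries. Stim in Late 3 was at 229 CPM, against 142 to 156 CPM in the other Late libraries.

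HSD stages differed from each other for 3 of the 5 genes by the edgeR test. CD cancels in such a difference, so these are the comparisons between stages already given above. Between Late and Early the log2 fold change was -2.34 for SERCA (adjusted p = 9.36e-04), -2.38 for RyR (adjusted p = 0.00252) and 0.44 for Stim (adjusted p = 0.0455). Between Mid and Early it was -1.68 for SERCA (adjusted p = 0.0370). With 1 library left out in turn, the Stim call was lost in 14 of 16 cases and the SERCA call between Mid and Early in 10 of 16. Stim was not called against CD at any stage.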

How the results depend on the processing

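For 19 of 30 results (5 genes in 6 comparisons) neither direction nor call changed under 8 other settings or with any of 16 libraries left out. Upper-quartile scaling moved the median log2 fold change of all genes at Late from -0.08 to -0.24 and at Mid from -0.06 to -0.18, and no member changed direction. With DESeq2's Wald test the genes called were 1884 at Early, 1777 at Mid, 989 between Mid and Early and 553 between Late and Mid. Members called became 1 at Mid and 2 between Mid and Early. The calls gained were Itpr at Mid (0.81, adjusted p = 0.0374), Itpr between Late and Early (0.73, adjusted p = 0.0412) and RyR between Mid and Early (-1.47, adjusted p = 0.0117), and calcium list calls became 9 at Mid, 7 between Mid and Early and 7 between Late and Mid. With only the 8 libraries of a comparison the genes called were 445 at Early, 441 at Mid, 0 between Mid and Early and 0 between Late and Mid. Members called became 1 at Early and 0 between Mid and Early, calcium list calls 1 and 0, RyR at Early 2.20 (adjusted p = 0.0549), SERCA between Mid and Early -1.61 (adjusted p = 0.109) and Stim between Late and Early 0.45 (adjusted p = 0.0776). With genes of at least 10 CPM, 513 were called between Mid and Early and 184 between Late and Mid. Members called between Mid and Early became 2, with RyR at -1.45 (adjusted p = 0.0421), Itpr between Late and Early was called (0.76, adjusted p = 0.0343), and calcium list calls were 5 at Mid and 4 between Late and Mid. Between Late and Mid, 2 genes were called without a filter and 1 after dropping the 20 most counted genes, while calcium list calls at Mid were 3 in both. Upper-quartile scaling gave 2 calcium list calls at Mid and 1 between Late and Mid. Stim between Late and Early was not called with DESeq2 size factors (0.41), upper-quartile scaling (0.35), no filter (0.47) or without the 20 genes (0.46).

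No pairing of libraries by replicate number was seen, though the labels do not settle it. The mean correlation of deviations was 0.0048 over 24 same-numbered pairs (12 of them over 0.1, range -0.75 to 0.68). Over 72 other-numbered pairs it was -0.0019 (32 of them over 0.1, range -0.84 to 0.83). With the replicate block, 486 genes were called at Mid and 6 between Late and Mid, members called between Mid and Early became 2, RyR there was -1.32 (adjusted p = 0.0486) and Stim between Late and Early 0.43 (adjusted p = 0.0704).

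With 1 library left out, genes called ranged from 278 to 1122 at Early, 161 to 1087 at Mid, 1549 to 2704 at Late, 1381 to 2644 between Late and Early, 0 to 589 between Mid and Early and 0 to 222 between Late and Mid. Members called ranged from 0 to 1 at Mid, 0 to 2 at Late and 0 to 2 between Mid and Early, and calcium list calls from 0 to 7 at Early, 1 to 6 at Mid, 0 to 6 between Mid and Early and 0 to 3 between Late and Mid. Log2 fold changes ranged from 0.71 to 1.09 for Itpr at Mid, 0.87 to 1.29 at Late and 0.63 to 1.01 between Late and Early. They ranged from 0.27 to 0.50 for Stim at Late, 0.32 to 0.55 between Late and Early and -0.028 to 0.30 between Late and Mid, and from -0.36 to 0.078 for RyR at Late and -1.63 to -0.88 between Mid and Early. SERCA between Mid and Early ranged from -1.84 to -1.31 and Ca-alpha1D from -0.072 to 0.24. Ratios with a turned sign, none of them with an adjusted p under 0.05, were Stim to contractile genes at Mid (-0.089 to 0.34), RyR to Ca-alpha1D at Mid (-0.015 to 0.58), Itpr to RyR at Mid (-0.16 to 0.19) and SERCA to RyR between Late and Early (-0.22 to 0.092). Of 39 calls of calcium list genes, 29 were kept under every other setting and 25 with every library left out, and none turned. The causes of these changes were not tested. Calls lost at Late with 1 library left out include regucalcin (5 of 16 libraries) and CG9297 (without Late 2, -1.75, or Late 3, -1.64).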

Other observations

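Some genes of the calcium list changed without being described above. Asph, the aspartate beta-hydroxylase gene whose vertebrate locus also encodes reticulum proteins, was at 296 ± 53.6 CPM in CD and 117 ± 41.7 at Late (SD, n = 4), a log2 fold change of -1.34 (edgeR, adjusted p = 0.00368), with all Late libraries below all CD libraries. The calcium-binding protein gene regucalcin was at 1533 ± 604 CPM in CD and 671 ± 87.1 at Late (-1.19, adjusted p = 0.0261). This call was lost without CD 3, where the log2 fold change was -0.90, and without any 1 Late library (-1.24 to -1.13).

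The libraries of a group did not vary alike for the 5 genes. At Late the coefficient of variation was 15.9% for SERCA, 30.6% for RyR and 23.5% for Stim, whereas in CD it was 42.2% for SERCA, 49.5% for RyR and 6.40% for Stim. For Itpr it was 36.5% in CD and 22.3% at Late, and for Ca-alpha1D 22.5% and 25.0%. The Stim value at Late includes Late 3, the library flagged above at 229 CPM. Differences in variation were not tested.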
